A study of Mus musculus with 50 samples.

Results

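Heat shock proteins and DNAJ chaperones were taken as every gene whose symbol began with Hsp90, with Hspa, Hspb, Hspd, Hspe or Hsph and a digit, or with Dnaja, Dnajb or Dnajc and a digit. This gave 72 of the 24984 genes counted, 27 of them Hsp genes and 45 of them Dnaj genes. They were measured by RNA-seq in 38 libraries of 10 groups, all from C57BL/6 mice. Kidney and liver were taken from untreated young mice of 2.5 months and untreated old mice of 23 to 25 months, with 4 libraries per tissue and age. Kidney and liver were also taken from mice of 20 to 21 months that had received either DMSO, a solvent, or 3C, again with 4 libraries per tissue and treatment. Skin fibroblasts labelled P9 had received DMSO or 3C, with 3 libraries each. What 3C is, its dose and time, and what P9 stands for are not given in the sources used here. The study's methods describe the young and old mice as female. Nothing in the labels says that libraries of a group came from separate animals or cultures, so p-values measure the spread between these libraries, which may be technical. Counts per library summed to between 14238228 and 43704147.

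Chaperones of the HSP70 and HSP90 families use ATP to fold client proteins, whereas small heat shock proteins (the Hspb genes) hold unfolding proteins without it. J proteins, the products of the Dnaj genes, deliver clients to HSP70 and start its ATP hydrolysis. Some members are induced by the heat shock factor HSF1 when proteins misfold, their relatives are made at all times, and a further set serves the endoplasmic reticulum (ER), where the unfolded protein response raises it. A list of 12 inducible members (Hspa1a, Hspa1b, Hsph1, Dnajb1, Hspb1, Hsp90aa1, Dnaja1, Hspd1, Hspe1, Hspb8, Dnajb4, Hspa4l) was set beside a list of 12 constitutive ones (Hspa8, Hsp90ab1, Hspa4, Hspa9, Hspa14, Dnaja2, Dnajb6, Dnajc2, Dnajc5, Dnajc7, Dnajc8, Dnajc9). The lists were chosen with earlier results of these data known. Members of a list share the same libraries, so counts of estimates above 0 describe the list and are not tests.

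The promoters of the members were read from RefSeq (GRCm38.p6), which held 75 promoters of 58 members in windows from 250 bases before to 50 bases after the start. Dnajc11, Dnajc12, Dnajc18, Dnajc2, Dnajc22, Dnajc30, Dnajc5, Dnajc5b, Hsp90aa1, Hsp90ab1, Hspa13, Hspa8, Hspa9 and Hspb2 had no entry. Searched on both strands, the three-unit heat shock element GAANNTTCNNGAA, the binding sequence of HSF1, lay in 8.0% of the members' promoters and in 0.603% of all 32851 promoters. It was found for Dnajb6, Hspd1, Hspe1 and Hsph1, in 4 of the 17 promoters of inducible members (23.5%) and 2 of the 9 of constitutive members (22.2%). Hsph1 and Dnajb6 were each counted with 2 promoters. By gene, the element was found for 3 of 11 inducible members and 1 of 7 constitutive ones with an entry. The genes Hspd1 and Hspe1 overlap on opposite strands, so their matches may be the same site. The shorter two-unit form GAANNTTC or TTCNNGAA, which every three-unit match contains, lay in 10 of the 17 promoters of inducible members (58.8%), in 2 of the 9 of constitutive members (22.2%) and in 15.1% of all promoters. By gene, it was found for 9 of 11 inducible members and 1 of 7 constitutive ones. The ER stress element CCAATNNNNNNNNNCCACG lay in the promoters of Dnajc3, Hsp90b1 and Hspa5 (4.0% of the members' promoters, 0.119% of all). A match describes letters in a window and is not evidence of binding. The search took exact letters only, so a missing match does not show that an element is absent. The sequences below show the inducible pair Hspa1a and Hspa1b, the three-unit elements of the mitochondrial chaperonin gene Hspe1 (2 overlapping matches, from base −89 to −77 and from −84 to −72) and of the constitutive Dnajb6, and the ER elements of Hspa5 and Hsp90b1. Capitals mark the element, or in Hspe1 both matches together, each is written 5′ to 3′ on the gene's strand, and the coordinates are those of GRCm38.p6. The match of Hsph1 lay after its start and is not shown, Dnajb1 had none, and Hspe1 was picked after its match was seen.
Hspa1a, chr17:34972157-34972376, minus strand: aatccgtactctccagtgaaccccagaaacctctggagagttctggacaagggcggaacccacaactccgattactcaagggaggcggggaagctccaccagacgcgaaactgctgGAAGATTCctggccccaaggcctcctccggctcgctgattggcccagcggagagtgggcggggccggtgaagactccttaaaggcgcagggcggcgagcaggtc
Hspa1b, chr17:34959239-34959458, minus strand: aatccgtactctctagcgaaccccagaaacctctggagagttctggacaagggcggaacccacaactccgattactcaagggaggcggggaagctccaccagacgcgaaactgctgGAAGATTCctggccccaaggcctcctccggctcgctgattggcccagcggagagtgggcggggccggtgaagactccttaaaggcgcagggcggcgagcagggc
Hspe1, chr1:55088053-55088082, plus strand: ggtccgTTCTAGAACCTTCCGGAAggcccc
Dnajb6, chr5:29735844-29735873, plus strand: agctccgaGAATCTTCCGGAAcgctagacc
Hspa5, chr2:34772020-34772049, plus strand: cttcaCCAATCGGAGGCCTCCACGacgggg
Hsp90b1, chr10:86705510-86705664, minus strand: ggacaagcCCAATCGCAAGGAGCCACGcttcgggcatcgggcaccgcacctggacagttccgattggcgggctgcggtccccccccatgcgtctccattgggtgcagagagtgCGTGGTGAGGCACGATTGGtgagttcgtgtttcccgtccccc
In both Hspa1a and Hspa1b the element lay from base −104 to base −97, counted from the start. The stretches of Hspa1a and Hspa1b had 217 of 220 bases in common (98.6%). Their transcripts are alike as well: of all 150-base windows, the read length, 38.1% of those of Hspa1a were also in Hspa1b, and 40.5% of those of Hspa1b were also in Hspa1a, so the division of reads between the pair is uncertain and both are given below. The tally of reads without a unique alignment was 1837098 to 6225292 in the young and old libraries and 0 in every DMSO and 3C library. Such reads may thus have been handled differently, which limits a comparison of the pair between these sets. Exons of Dnaja4, Hspb2, Dnajc30, Dnajc14, Dnajb13 and Hsp90b1 overlapped another gene by 10.3 to 44.1% of their length, and counting ignored strand. Reads that fit more than a single gene were tallied apart as ambiguous (1.72 to 2.81% per library). The counts of these members may therefore lack reads from the overlap.

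The 72 members together took 0.770% ± 0.147 of all gene counts in young liver and 1.19% ± 0.158 in 3C kidney (mean ± SD, n = 4), the lowest and the highest group. A few genes carried most of this. The 5 members with the most counts, led in every group by Hspa8, the constitutive cytosolic HSP70, held between 50.9 and 65.5% of the members' counts in each library. On the scale of CPM (counts relative to the library's total, scaled with TMM factors over all libraries) per kb of exon, Hspa8 had a mean level of 524 in young kidney, 653 in young liver and 376 in DMSO fibroblasts. Hsp90ab1, the constitutive cytosolic HSP90, was at 357, 459 and 400.5 per kb in the same groups. Hsp90aa1, its inducible relative, was at 111, 127 and 116 per kb. The order of the tissues rests on the scaling. In young mice the log2 difference of kidney over liver for Hspa8 was −0.33 under TMM and 0.77 on library totals. For Hsp90ab1 it was −0.37 and 0.71. The inducible HSP70 genes were low: Hspa1a was at 9.11, 0.636 and 8.11 per kb, and Hspa1b at 18.3, 10.9 and 48.6 per kb. At the other end, Dnajb8, Dnajc5g and Hspb3 had no count in any library, and Dnajb7 and Dnajc5b also had too few counts to be tested in any comparison. 60 members were tested in all 7 comparisons between groups. The kidney markers (Umod, Lrp2 and 4 others) summed to 7898 to 14580 CPM in the kidney groups, and the liver markers (Alb, Ttr and 4 others) to 92660 to 334100 CPM in the liver groups, so that each tissue showed its own markers. In old kidney replicate 2, Alb, a liver gene, was at 2094 CPM, against 8.45 to 55.5 in the other 15 kidney libraries.

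**Figure D1:**
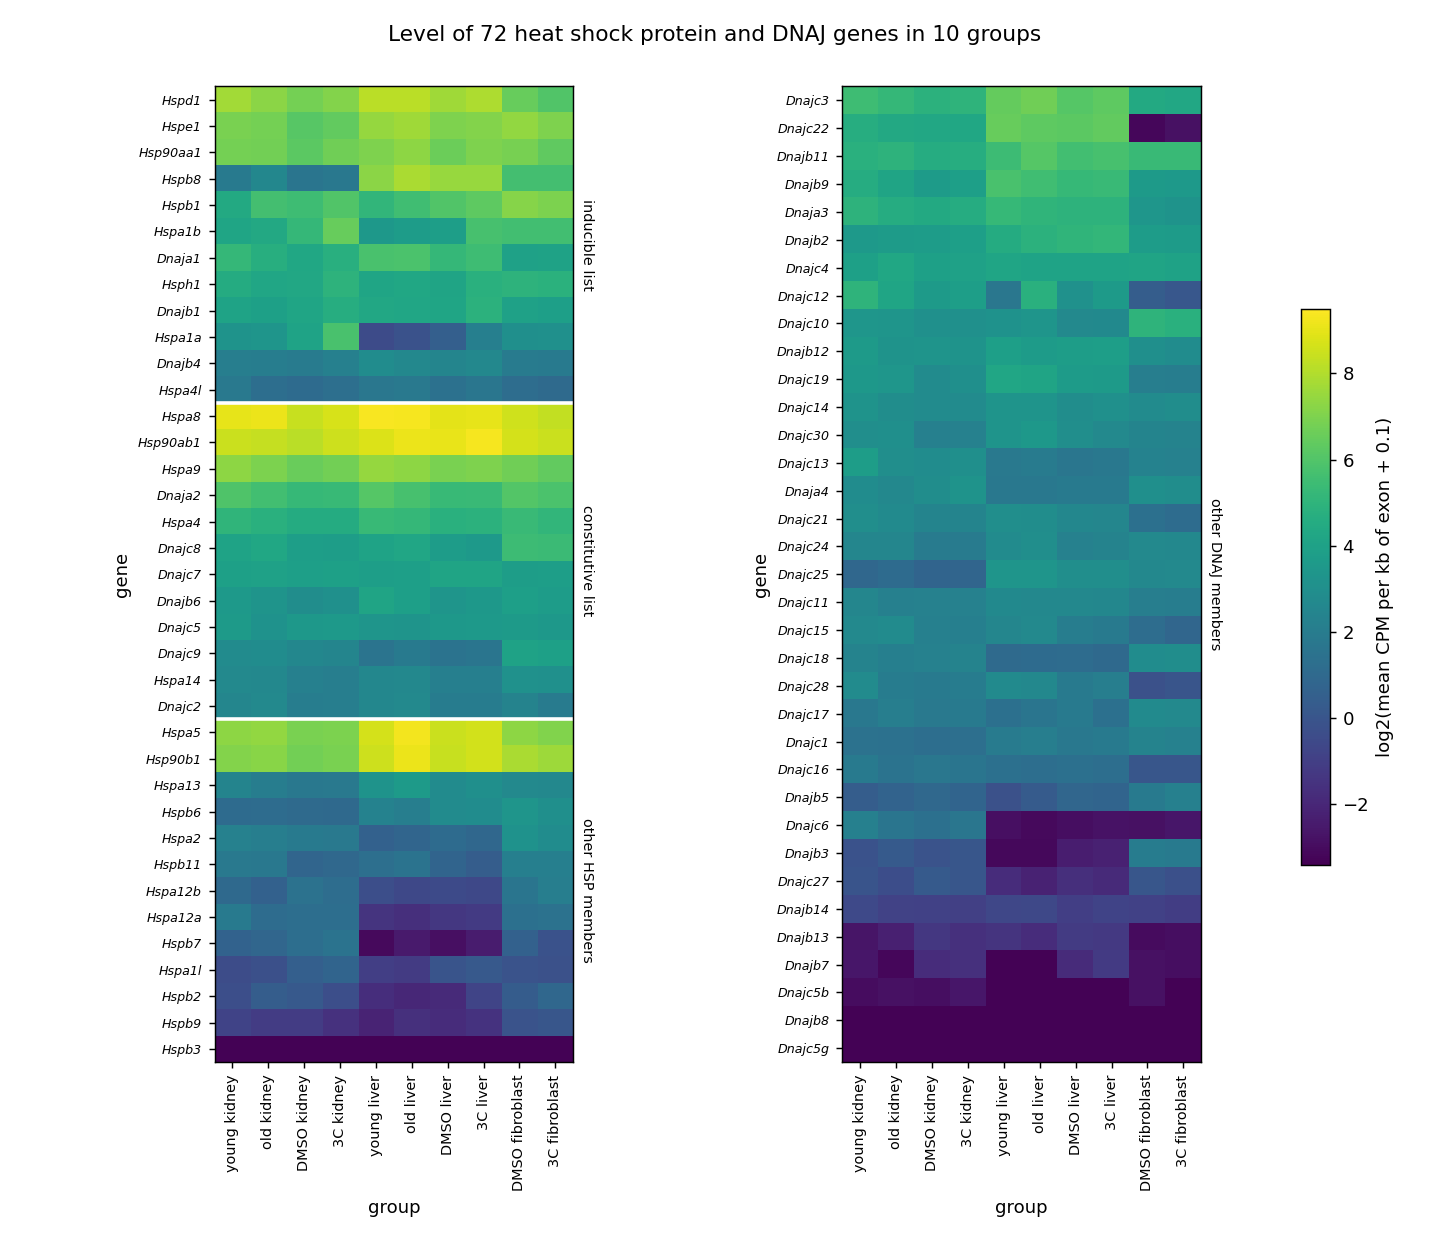
Mean level of each of the 72 members in each of the 10 groups, as log2 of CPM per kb of exon with 0.1 added, on a colour scale from dark purple (low) to yellow (high). Hspa8 and Hsp90ab1 are high in every column, Hspa5 and Hsp90b1 are higher in the 4 liver columns, Hspb8 is low in the 4 kidney columns, and Dnajc22 is dark in both fibroblast columns.

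Which chaperones differ between kidney and liver was asked in both sets of mice. Under the main scaling (TMM), 14 of 64 members were higher in kidney and 21 higher in liver among young mice, while 35.1% of all genes tested were called higher in kidney and 30.2% higher in liver. This fit did not pair the libraries. With the replicate number as a block, the same 35 members were called and Dnajc5, Dnajc16, Hspa1b and Hspb1 were added, for 17 higher in kidney and 22 higher in liver. Among DMSO mice, 17 of 66 members were higher in kidney and 25 higher in liver, while 38.7% and 33.2% of all genes were. In both sets 12 members were higher in kidney and 21 in liver, while 31.4% and 26.8% of the genes tested in both were, and no member took opposite directions (0.495% of genes did). A fold above 2 as well left 13 members higher in kidney and 8 higher in liver in young mice, while 25.7% and 16.9% of all genes passed. In DMSO mice it left 13 and 10, while 26.6% and 15.7% of all genes passed. At an unadjusted p under 0.05 stood 37 members in young and 44 in DMSO mice, and 68.3% and 73.9% of all genes. Scaling decided most of the liver-side calls. Without TMM, on library totals alone, the median difference of all genes moved from 0.08 to 1.16 (log2) in young and from 0.07 to 1.06 in DMSO mice, and the members split 51 higher in kidney to 3 higher in liver in young mice and 47 to 5 in DMSO mice. The calls below held under both scalings unless stated. 12 members were higher in kidney in both sets and under both scalings: Dnaja4, Dnajb3, Dnajc6, Dnajc9, Dnajc13, Dnajc18, Dnajc27, Hspa1a, Hspa2, Hspa12a, Hspa12b and Hspb7. Under TMM 21 members were higher in liver in both sets: Dnaja1, Dnaja3, Dnajb2, Dnajb4, Dnajb6, Dnajb9, Dnajb11, Dnajb12, Dnajc1, Dnajc3, Dnajc19, Dnajc22, Dnajc25, Hsp90ab1, Hsp90b1, Hspa5, Hspa13, Hspb6, Hspb8, Hspd1 and Hspe1. Of these, only Hspb8, Dnajc22 and Dnajc25 kept the call in both sets on library totals, while 9 of them turned in young mice, called higher in liver under TMM and higher in kidney on library totals: Dnaja1 (−0.62 and 0.48), Dnaja3, Dnajb6 (−0.55 and 0.53), Dnajb11, Dnajb12, Dnajc1, Hsp90ab1, Hspd1 and Hspe1. In DMSO mice Dnaja3, Dnajb4, Dnajb6, Dnajb12 and Dnajc1 turned in the same way, as did Dnajc7, Dnajc11 and Hspa9, which were called in that set alone.

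Hspb8, a small heat shock protein that works with the co-chaperone BAG3, differed most among those higher in liver. It was at 6.43, 6.71, 8.14 and 7.66 CPM in young kidney and at 272, 305, 320 and 295 CPM in young liver. In DMSO mice it was at 7.11, 3.73, 5.27 and 7.18 CPM in kidney and at 329.9, 319, 450.1 and 329 CPM in liver. No kidney library came near any liver library. The log2 difference, kidney over liver, was −5.38 (SE 0.15, adjusted p 6.43e-11, edgeR's quasi-likelihood test with Benjamini-Hochberg adjustment) in young and −5.90 (SE 0.22, adjusted p 3.07e-10) in DMSO mice, and −4.30 and −4.90 on library totals. Dnajc22 was at 45.3 to 47.1 CPM in young kidney and 151 to 185 CPM in young liver, a log2 difference of −1.86, and was listed at 0 to 0.145 CPM in the 6 fibroblast libraries. Dnajc25 differed by −2.46 in young and −2.26 in DMSO mice.

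Hspa1a, the inducible HSP70, lay on the opposite side. It was at 31.4, 24.0, 24.4 and 28.4 CPM in young kidney and at 1.13, 1.61, 2.08 and 2.72 CPM in young liver, with no overlap. The log2 difference was 3.84 (SE 0.25, adjusted p 5.79e-08, edgeR) in young and 3.66 (SE 0.56, adjusted p 9.60e-05) in DMSO mice. Its near copy Hspa1b differed less, by 0.75 (adjusted p 0.0612, but 1.85 and called on library totals) in young and 1.35 (adjusted p 0.0208) in DMSO mice, with overlapping groups in both. Dnajc6 (auxilin, which strips clathrin from vesicles) was at 21.4 to 31.0 CPM in young kidney and at 0 to 0.527 CPM in young liver. Hspb7, a small heat shock protein best known from muscle, was at 2.17 to 5.97 CPM against 0 to 0.1402 CPM. Hspa12a, an atypical HSP70, was higher by 3.67 and 2.92 (log2), and Dnajc13, a J protein of endosomes, by 2.003 and 1.262.

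The ER chaperones were called higher in liver under TMM, 8 of 10 members in each set, while 30.2% (young) and 33.2% (DMSO) of all genes were. The ER member Dnajc10 went the other way in DMSO mice, called higher in kidney under TMM (0.46) and on library totals (1.45). Dnajb11, called higher in liver under TMM (−0.66) in young mice, was called higher in kidney on library totals (0.43). Hspa5 (BiP), the HSP70 of the ER lumen, was at 569, 575, 848 and 709.9 CPM in young kidney and at 1061, 1813, 2495 and 1630 CPM in young liver. The log2 difference of −1.38 (adjusted p 0.000351) became −0.30 (adjusted p 0.240) on library totals. For Hsp90b1 (GRP94), the ER member of the HSP90 family, −1.45 in young mice became −0.36 without a call (adjusted p 0.0750), whereas −1.64 in DMSO mice became −0.65 and kept its call (adjusted p 0.00166). Of 19 other ER folding genes, 17 in young and 18 in DMSO mice were higher in liver under TMM, against the same 30.2% and 33.2% of all genes. In young mice their differences ran from −2.19 (Edem1) to 0.34 (Ddit3). Many of them, such as Calr (−0.82) and Sec61b (−1.25), were smaller than or near the shift between the scalings. Of 8 subunits of TRiC, the cytosolic chaperonin, 7 and 8 were, with medians of −0.53 and −0.55 that are smaller than the shift between the scalings.

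**Figure D2:**
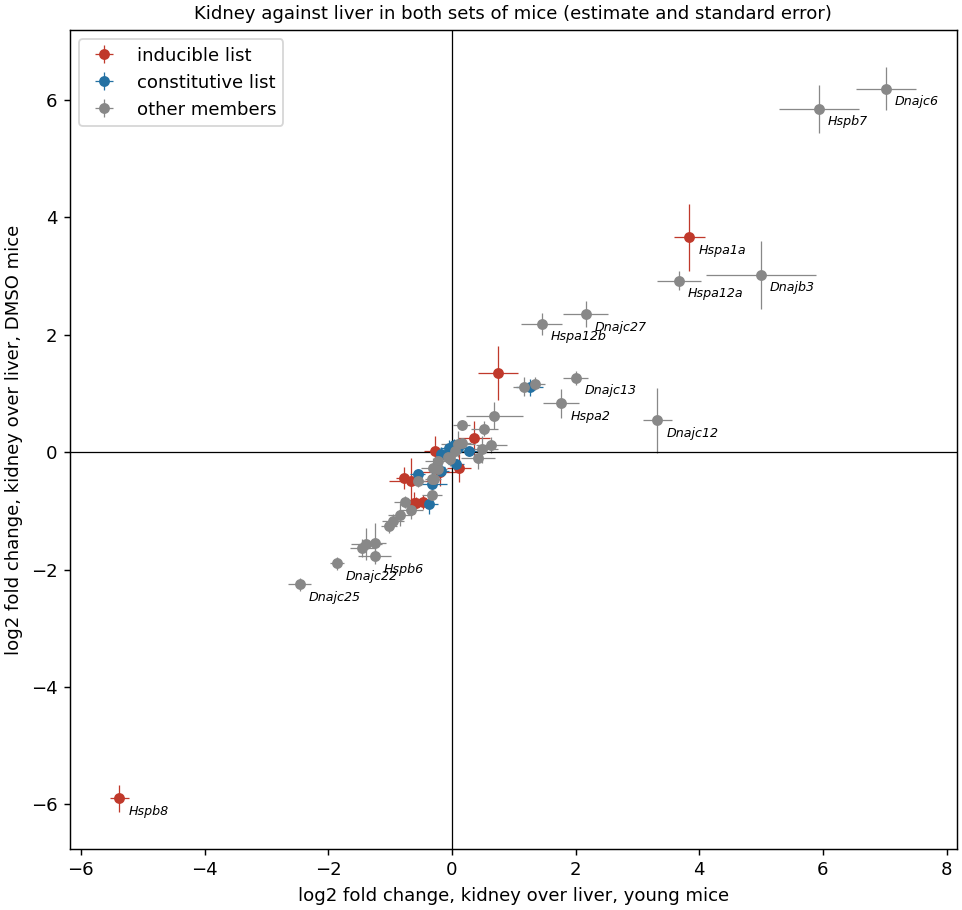
Log2 fold change of kidney over liver under TMM scaling for each member tested in both sets, in young mice on the x axis and in DMSO mice on the y axis, with bars for the standard error, red for the inducible list, blue for the constitutive list, grey for other members, and names for the members farthest from 0. Hspb8 stands alone at the lower left (−5.38 and −5.90), and Dnajc6, Hspb7, Hspa1a and Hspa12a stand at the upper right.

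Whether the members change with age was asked first in kidney. Of 65 members tested, 2 rose and 7 fell in old kidney, while 11.5% of all 14495 genes tested were called (8.15% higher and 3.36% lower), so the share of members called was near that of all genes. On library totals 2 members rose and 4 fell, and the split of all genes moved from 1182 higher and 487 lower to 1220 and 219. Above 2-fold, Hspb1 alone was called, while 5.68% of all genes were higher and 0.407% lower by as much, and 17 members had an unadjusted p under 0.05 (30.1% of all genes). The members that rose were small heat shock proteins of the inducible list. Hspb1 (HSP25), which also binds actin filaments, was at 18.2, 17.7, 27.7 and 26.1 CPM in young and at 53.1, 29.6, 66.8 and 54.2 CPM in old kidney. All 4 old libraries lay above all 4 young ones, and old replicate 2 was the lowest of them. The log2 fold change was 1.24 (SE 0.24, adjusted p 0.0100), and 1.42 without old replicate 2. Hspb8 went from 6.43, 6.71, 8.14 and 7.66 CPM to 8.64, 13.3, 11.4 and 12.01 CPM, again with no overlap, a log2 fold change of 0.72 (SE 0.18, adjusted p 0.0311). Its highest old value was that of replicate 2, the library with Alb at 2094 CPM, and Hspb8 was at 352 to 574 CPM in old liver. Without that library the groups still did not overlap and the fold change was 0.62 (adjusted p 0.0375). The Hspb8 call was lost in 5 of 14 alternatives, the replicate block among them. The other Hspb genes tested did not pass: Hspb2 was at 0.81 (SE 0.46), Hspb7 at 0.27 (SE 0.29), Hspb6 at 0.12 (SE 0.25) and Hspb11 at 0.04 (SE 0.25).

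Of the 7 members that fell in old kidney, Dnajc12, a J protein that serves the aromatic amino acid hydroxylases, had the smallest p. It was at 137, 137, 144 and 157 CPM in young and 83.2, 74.5, 99.5 and 66.9 CPM in old kidney. The groups lay wholly apart, with a log2 fold change of −0.77 (SE 0.12, adjusted p 0.00373). Dnajc28 went from 26.3, 24.0, 28.2 and 22.1 CPM to 13.3, 17.0, 11.6 and 14.4 CPM (−0.77, SE 0.16, adjusted p 0.0119). Hspa12a fell by 0.68 on the log2 scale, from 24.8 to 36.3 CPM in young to 16.6 to 23.1 CPM in old kidney (adjusted p 0.0240). Dnajc13 fell by 0.73 (adjusted p 0.0350), and its groups overlapped. The other 3 belonged to the inducible list: Hspa4l, an HSP110-type partner of HSP70, fell by 0.55 (adjusted p 0.0271), Dnaja1, a cytosolic J protein, by 0.40 (adjusted p 0.0360), and Hspd1, the mitochondrial chaperonin HSP60, by 0.37 (adjusted p 0.0368).

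The inducible list thus moved both ways in old kidney, with 2 members up, 3 down and 7 without a call, and a median of −0.01. Hspa1a was at 24.0 to 31.4 CPM in young and 18.3 to 44.4 CPM in old kidney (0.15, SE 0.24, adjusted p 0.704), and Hsp90aa1 was at −0.00 (SE 0.13, adjusted p 0.996). None of the 12 constitutive members and none of the 10 ER members passed, with 2 and 2 at an unadjusted p under 0.05. DESeq2 called 15 members, the same 9 and Dnaja2, Dnaja3, Dnajb9, Dnajb12, Dnajc6 and Hspa9, all of them lower except Hspb1 and Hspb8. Dnajc12, Dnajc28 and Hspb1 passed in all 14 alternative fits. Leaving out young replicate 1, 2, 3 or 4 left 4, 3, 3 and 9 members called, and leaving out old replicate 1, 2, 3 or 4 left 4, 13, 5 and 3. With the replicate number as a block, 4 passed (Dnajc12, Dnajc28, Hspa12a and Hspb1).

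Among genes that work with the members, Cryab, a small heat shock protein whose symbol lay outside the rule, rose by 1.004 (log2, adjusted p 0.0274), and Chordc1, an HSP90 co-chaperone induced by HSF1, fell by 0.43 (adjusted p 0.0309). They were the only 2 called of 7 other HSF1 targets. Hsf4 was the only heat shock factor called of 3 tested (1.63, adjusted p 0.0471). Hsf1 itself was at −0.02 (SE 0.11). None of 13 HSP90 co-chaperones, 10 HSP70 co-chaperones and BAG proteins, 8 mitochondrial partners or 8 TRiC subunits passed, with 2, 3, 0 and 0 at an unadjusted p under 0.05. Of 19 ER folding genes that are no members, 1 passed, Ddit3 (CHOP), a transcription factor of the unfolded protein response, which rose by 0.80 (adjusted p 0.0422), and 7 had an unadjusted p under 0.05. Of 12 immediate early genes tested, which respond to handling as well as to stimuli, 6 rose, Junb by 1.16 and Atf3 by 1.99. Of 14 clock genes none passed, and 9 had an unadjusted p under 0.05, among them Clock (−0.74), Nr1d2 (−0.89), Dbp (−1.16) and Cry1 (0.60), while 30.1% of all genes had one. Markers of immune cells moved with age in the same libraries: 6 of 6 macrophage, 5 of 5 B and plasma cell and 4 of 5 T cell markers rose, and the summed macrophage markers went from 92.0 to 122 CPM in young to 319 to 587 CPM in old kidney. Markers of other cells moved too: of 6 kidney markers Slc34a1, of the proximal tubule, fell by 0.61 (adjusted p 0.0161), of 6 smooth muscle markers Myl9 rose by 0.69 and Myh11 fell by 0.70 (adjusted p 0.0397 and 0.0257), of 6 fibroblast markers Thy1, which T cells also make, rose by 1.93, and Myh1, the only striated muscle marker tested of 6, rose by 1.84. In bulk samples, fewer cells of a type and less RNA per cell cannot be told apart, and the part of these cells in the members' changes was not tested.

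In liver, no member passed the age comparison, out of 62 tested, while 2.46% of all 12537 genes were called (1.91% higher and 0.558% lower, and 1.69% and 0.439% by over 2-fold). 6 members had an unadjusted p under 0.05 (14.7% of all genes had), and DESeq2 called 1, Dnajc12. Dnajc12 was at 10.6, 10.9, 13.4 and 22.5 CPM in young liver and at 317, 17.9, 149 and 13.8 CPM in old liver. Old replicates 1 and 3 were far above the rest, and the other old libraries lay within the young range. The log2 fold change was 3.14 (SE 0.86, adjusted p 0.0907), from 2.09 to 3.51 with an adjusted p of 0.0261 to 0.391 over 14 alternatives. Without old replicate 4 it passed (3.51, adjusted p 0.0296). Livers of the mice of 20 to 21 months also differed among themselves, at 15.4, 26.9, 102 and 9.13 CPM in DMSO liver and 22.8, 18.5, 76.2 and 106 CPM in 3C liver. A test of the difference itself, the age effect in liver minus that in kidney, gave 3.95 (SE 0.96, adjusted p 0.0477), the single member called of 66 (1.72% of all genes were, 0.871% higher and 0.845% lower). This call was lost with RLE size factors, with the replicate block and without any 1 of 14 of the 16 libraries (2.90 without old liver replicate 1). It was kept without old liver replicate 2 or 4.

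Hspb8 did not overlap between ages in liver either, at 272, 305, 320 and 295 CPM in young and 574, 352, 507 and 363 CPM in old liver. The log2 fold change was 0.61 (SE 0.20, adjusted p 0.161). The ER members Hsp90b1 (0.60, SE 0.25), Dnajb11 (ERdj3, a BiP partner; 0.68, SE 0.29) and Hspa13 (0.43, SE 0.19) had an unadjusted p under 0.05 and an adjusted p of 0.290 to 0.309. Hspa5 was highest in old replicate 1, at 3625 CPM, against 1718 to 2722 in the other old and 1061 to 2495 in the young libraries. Of the 12 inducible members 10 had an estimate above 0 (median 0.17), of the 12 constitutive ones 6 (median 0.02), and of all genes 50.4%. In the same libraries 4 of 5 B and plasma cell markers and 1 of 6 macrophage markers rose, as did Junb, an immediate early gene (1.66, adjusted p 0.0425).

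**Figure D3:**
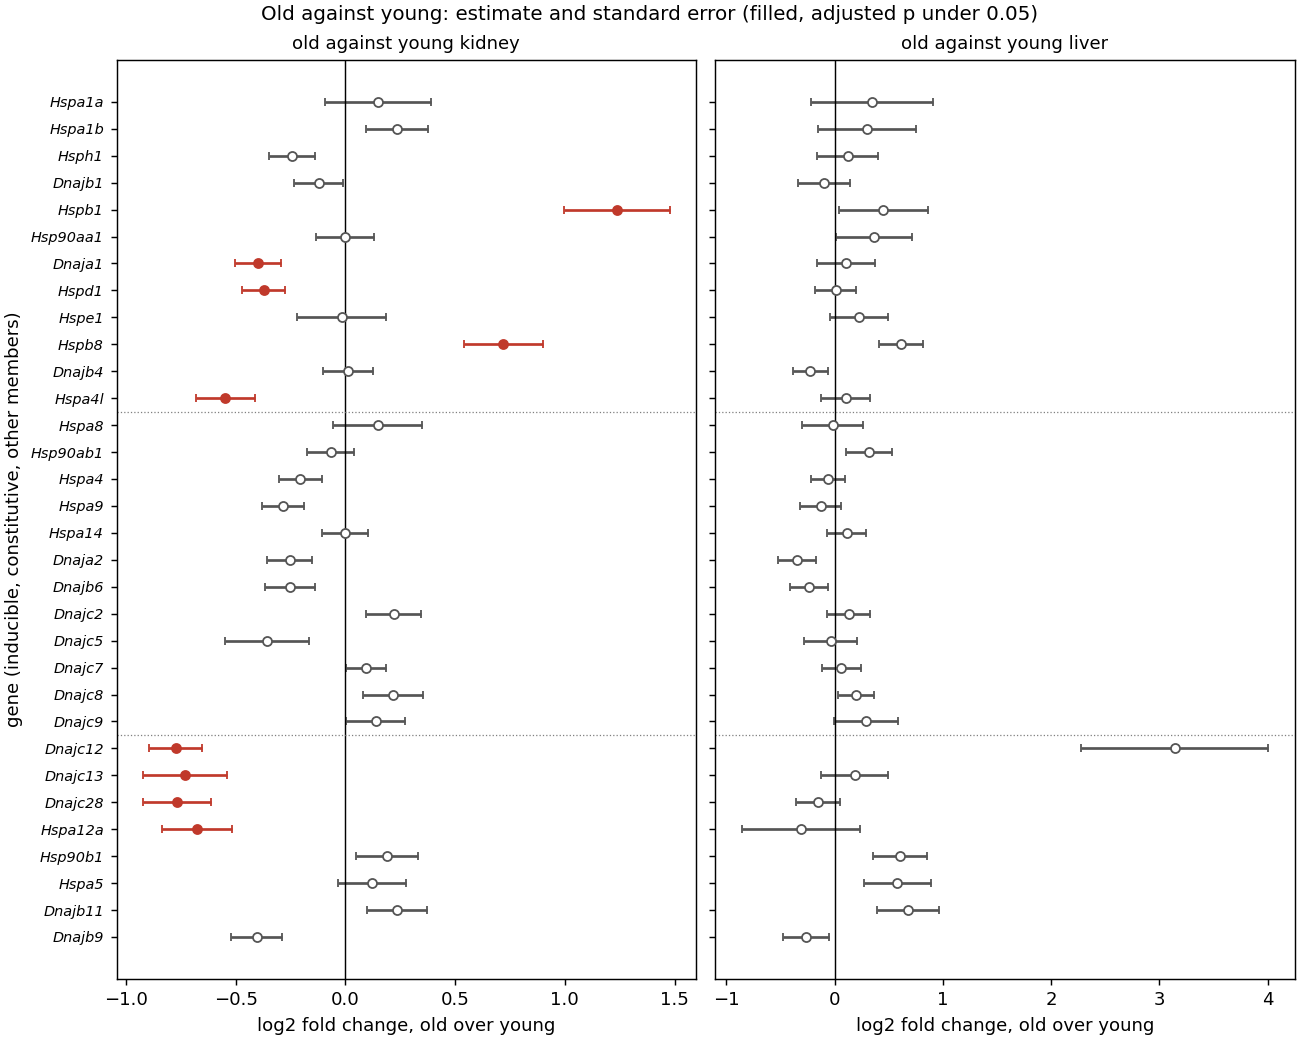
Log2 fold change of old over young with its standard error, in kidney (left) and liver (right, with a wider axis), for the inducible list, the constitutive list and 8 other members, from top to bottom. Filled points passed an adjusted p under 0.05: Hspb1 and Hspb8 to the right and 7 members to the left in kidney, and none in liver, where Dnajc12 lies at 3.14 with a wide error.

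The effect of 3C was read in kidney and liver of mice of 20 to 21 months. In kidney no member of 66 passed, as no gene of 14974 did (0.0% called). 12 members had an unadjusted p under 0.05, while 11.9% of all genes had. DESeq2 called 231 genes and none of the members. The estimates of the inducible list all lay above 0, 12 of 12 with a median of 0.43, against 8 of 12 with a median of 0.04 for the constitutive list and 51.4% of all genes. These members were measured in the same libraries and are not separate observations, so the count is not a test. Hspa1a was at 97.4, 30.5, 19.7 and 51.7 CPM in DMSO kidney and at 262, 218, 68.1 and 103 CPM in 3C kidney. Each 3C library was above 3 of the DMSO libraries, and DMSO replicate 1 fell inside the 3C range. The log2 fold change was 1.68 (SE 0.50, adjusted p 0.253), and from 1.37 to 2.22 over 14 alternatives.

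Hspa1b followed the same order, at 189, 74.8, 40.5 and 97.3 CPM in DMSO and 376, 338, 122 and 165 CPM in 3C kidney (1.29, SE 0.45, adjusted p 0.307). Hsph1, the HSP110 that recycles HSP70, was at 190.4, 136, 99.0 and 156 CPM and at 255, 269, 176 and 185 CPM (0.58, SE 0.19). Hsp90aa1 was at 359.9, 246, 254 and 319.7 CPM in DMSO and 391, 539, 355 and 373 CPM in 3C kidney (0.47, SE 0.15). The groups of all 4 genes overlapped through DMSO replicate 1. Dnaja4, another cytosolic J protein, did not overlap, at 24.2 to 29.7 against 30.8 to 35.7 CPM (0.26, SE 0.08, adjusted p 0.263). Among the constitutive list, Hsp90ab1 (0.35) and Hspa9 (0.17), the mitochondrial HSP70, had an unadjusted p under 0.05, while Hspa8 was at 0.26 (SE 0.16) and Hspa4, the constitutive HSP110, at −0.01 (SE 0.06).

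DMSO kidney replicate 1 had the highest Hspa1a and Hspa1b of the DMSO kidneys and also stood out in immediate early genes, with Fos at 19.1 and Egr1 at 70.9 CPM, against 2.54 to 3.16 and 12.8 to 16.7 CPM in the other DMSO kidneys. Without it, Hspa1a was at 2.22 (adjusted p 0.204) and Hspa1b at 1.79 (adjusted p 0.221). 3C kidney replicate 1, the highest for Hspa1a and Hspa1b, stood apart in clock genes, with Arntl at 1.86 and Dbp at 94.1 CPM, against 18.9 to 26.7 and 1.602 to 5.888 CPM in the other 3C kidneys. Without it, Hspa1a was at 1.37 and Hspa1b at 1.04. Markers of fibroblasts and macrophages were below their DMSO level in 3C kidney, 6 of 6 and 6 of 6 by estimate and 5 and 5 at an unadjusted p under 0.05. Smooth muscle markers were lower in 5 of 6, with 4 at an unadjusted p under 0.05, T cell markers in 5 of 5, with 3, and B and plasma cell markers in 5 of 5, with 2. Endothelial markers were lower by estimate as well, Cdh5 by 0.28 (edgeR, unadjusted p 0.0281). So were most immediate early genes, Egr3 by 1.41 and Egr2 by 1.29 (edgeR, unadjusted p 0.0178 and 0.0222), while Jun was at 0.08. None of these markers and genes was called. Whether handling, time of day or cell make-up had a part in the members' values was not tested.

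In liver no member of 62 passed either, again as no gene did (0.0% of 13042 called). 5 members had an unadjusted p under 0.05, while 3.34% of all genes had, and DESeq2 called 6 genes and none of the members. Hspa1b was at 73.5, 19.7, 25.4 and 41.5 CPM in DMSO and at 150.4, 243, 75.9 and 121 CPM in 3C liver. All 4 3C libraries lay above all 4 DMSO libraries. The log2 fold change was 1.86 (SE 0.42), with an unadjusted p of 0.00102 and an adjusted p of 0.9996. Hspa1a was at 8.50, 2.05, 1.75 and 3.48 CPM and at 15.1, 17.8, 7.12 and 11.5 CPM (1.67, SE 0.46), overlapping through DMSO replicate 1. The other 3 were Dnajb1 (0.67, SE 0.22), the main cytosolic J partner of HSP70, Hsph1 (0.63, SE 0.29) and Dnajc17 (−0.62, SE 0.26).

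In liver 11 of 12 inducible members had an estimate above 0 with a median of 0.28, against 8 of 12 with a median of 0.04 for the constitutive list. Of all genes 49.7% did. Hspa8 was at 0.03 (SE 0.19), and its sign changed with the scaling and with single libraries. Hspb8, on the inducible list, was the exception below 0 (−0.04, SE 0.14). As in kidney, the first 3C library stood apart in clock genes (Arntl 1.703, Dbp 179.9 CPM), and without it Hspa1b was at 1.85. Egr1, an immediate early gene, was at 94.46 and 89.99 CPM in 3C replicates 1 and 4, against 13.6 to 38.7 CPM in DMSO liver (1.21, unadjusted p 0.0375). T cell markers were lower in 3C liver, 5 of 5 by estimate and 4 at an unadjusted p under 0.05, as were the smooth muscle markers, 5 of 5 by estimate and 2 (Tagln and Myl9) at an unadjusted p under 0.05, with none called. Their part in the members' values was not tested. Kidney markers summed to 0.838 to 21.2 CPM in 3C liver, against 8262 to 9010 CPM in 3C kidney. Among them Lrp2 was at 0.531 to 1.11 CPM in DMSO and 0.838 to 9.05 CPM in 3C liver (2.11, edgeR, unadjusted p 0.00579), without a call. Whether 3C acted differently on a member in the tissues was tested directly: 0 of 66 members passed (0.0% of all genes), with 2 at an unadjusted p under 0.05, Dnajc17 and Hspb2 (3.57% of all genes). For Hspa1a the difference, liver minus kidney, was −0.02 (SE 0.82) in this fit, which treats kidney and liver libraries as independent. The labels do not say whether a number marks a mouse. Hspa1a in liver was lower than in the kidney of its number by 3.52, 3.89, 3.49 and 3.89 (log2) in DMSO and by 4.11, 3.61, 3.26 and 3.16 in 3C mice. With these numbers as blocks within each condition, a fit added after seeing the data, the difference was 0.12 (SE 0.21) for Hspa1a and 0.555 (SE 0.25, unadjusted p 0.0451) for Hspa1b, and again 0 of 66 members passed. Other HSF1 targets stayed without a call in both tissues. In kidney, Chordc1 was at 0.31 and Cacybp at 0.26 (unadjusted p 0.0407 and 0.0428), and Bag3, the partner of Hspb8, at 0.45 (unadjusted p 0.00798). In liver, 6 of 7 had an estimate above 0 and none had an unadjusted p under 0.05.

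**Figure D4:**
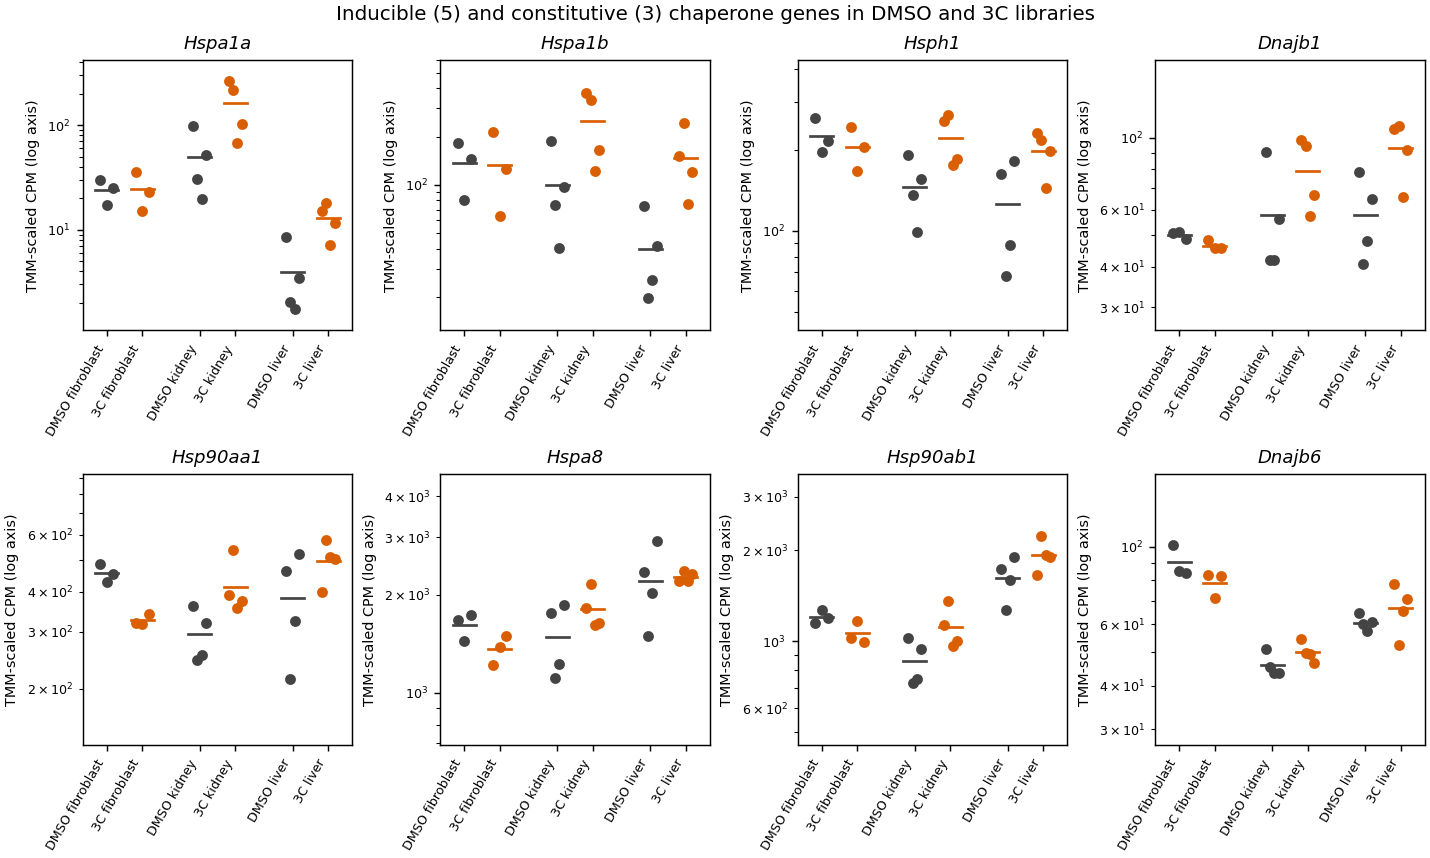
Level of 5 inducible members (Hspa1a, Hspa1b, Hsph1, Dnajb1, Hsp90aa1) and 3 constitutive members (Hspa8, Hsp90ab1, Dnajb6) in each DMSO (grey) and 3C (orange) library as TMM-scaled CPM on a log axis, with the group mean as a line. For Hspa1b in liver the 3C points (75.9 to 243) lie wholly above the DMSO points (19.7 to 73.5), while in fibroblasts the points of Hspa1a and Hspa1b overlap.

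The effect of 3C was also read in skin fibroblasts, which were not tested against the tissues. There 1 of 64 members passed, Hspb7, which fell, while 4.22% of all 13449 genes were called (2.43% higher and 1.78% lower, 327 and 240 genes, which became 370 and 164 on library totals). 8 members had an unadjusted p under 0.05, while 20.2% of all genes had. No member was called above 2-fold, while 1.23% of all genes were higher and 0.632% lower by as much. Hspb7 was at 3.97, 4.12 and 3.93 CPM in DMSO and at 1.80, 2.41 and 2.33 CPM in 3C fibroblasts. The groups lay apart, with a log2 fold change of −0.87 (SE 0.21, adjusted p 0.0485). The call was lost without any 1 of the 6 libraries (−0.94 to −0.75), with the replicate block and on library totals (−0.82). Hspd1 was at 225, 259 and 224 CPM and at 162, 183 and 165 CPM (−0.47, SE 0.12, adjusted p 0.0556), and Hsp90aa1 at 488, 429 and 454 CPM and at 319, 317 and 341 CPM (−0.48, SE 0.12, adjusted p 0.0567). Neither overlapped between groups, and DESeq2 and a fit without the filter on low counts called both, with 3 members in each case.

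Hspa1a was at 30.04, 17.07 and 25.09 CPM in DMSO and 35.32, 15.27 and 23.16 CPM in 3C fibroblasts (0.04, SE 0.28). Hspa1b was at 184, 80.6 and 145 CPM and at 212, 64.3 and 125 CPM (−0.02, SE 0.38). The libraries within a group differed more than the groups. Of the inducible list 2 of 12 estimates lay above 0 (median −0.11), of the constitutive list 1 of 12 (median −0.18), and of all genes 51.1%. None of the 8 TRiC subunits passed or had an estimate above 0 (median −0.36, 7 at an unadjusted p under 0.05). Smooth muscle markers moved with the treatment: 3 of 6 fell, Acta2 was at 1377, 1332 and 1559 CPM in DMSO and 759, 897 and 1018 CPM in 3C fibroblasts, and the sum went from 2857 to 3144 CPM to 1685 to 2328 CPM. The 6 fibroblast markers summed to 13230 to 18010 and 13500 to 17810 CPM. Macrophage markers were lower as well, 6 of 6 by estimate, with 5 at an unadjusted p under 0.05 and Csf1r called (−0.94, adjusted p 0.0148), and summed to 57.6 to 70.6 CPM in DMSO and 28.4 to 46.0 CPM in 3C fibroblasts. The clock genes Dbp, Tef and Per3 rose by 0.75, 0.56 and 0.80, and the immediate early gene Atf3 fell by 1.64. Striated muscle markers summed to 18.6 to 25.7 CPM in DMSO and 8.32 to 15.4 CPM in 3C fibroblasts, with 2 of 6 tested and 1 of them lower. Of the endothelial markers tested, Tek was called higher (1.05, edgeR, adjusted p 0.0385), while Egfl7 (−0.38) and Kdr (−0.85) were lower by estimate without a call. The part of these cells and genes in the members' values was not tested.

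Inducible members were then set against a constitutive relative inside each library, as the log2 ratio of their counts, so that scaling between libraries drops out. The sum of Hspa1a and Hspa1b over Hspa8 had a mean of −5.79 ± 0.65 (SD, n = 4) in DMSO liver and −3.94 ± 0.65 in 3C liver, a ratio 3.603-fold higher. All 4 3C libraries (−4.73 to −3.18) lay above all 4 DMSO libraries (−6.22 to −4.83). The exact two-sided permutation test gave p = 0.0286, the smallest that 4 against 4 libraries allow, and 0.321 after Benjamini-Hochberg adjustment over the 15 ratio tests. In kidney the ratio went from −3.50 ± 0.71 to −2.29 ± 0.70 (2.31-fold, exact permutation p = 0.0857, adjusted p = 0.321). In fibroblasts it differed by 0.15 (exact permutation p = 0.900, where 3 against 3 libraries cannot go below 0.1), and with age by 0.06 in kidney and 0.27 in liver (exact permutation p = 0.800 and 0.371). Leaving out 1 library moved the liver difference between 0.06 and 0.46.

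Hsp90aa1 over Hsp90ab1 was higher by 0.12 in 3C kidney (exact permutation p = 0.0571) and by 0.20 in 3C liver (exact permutation p = 0.429, and 0.06 to 0.29 without 1 library), and lower in 3C fibroblasts (−0.31, exact permutation p = 0.200). Dnajb1 over Dnajb6 was higher by 0.37 in 3C kidney and 0.58 in 3C liver (exact permutation p = 0.229 and 0.0857), and without 1 library by 0.25 to 0.56 and 0.38 to 0.74. None of the 15 ratio tests had an adjusted p under 0.05. Treated mice were not compared with untreated ones.

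**Figure D5:**
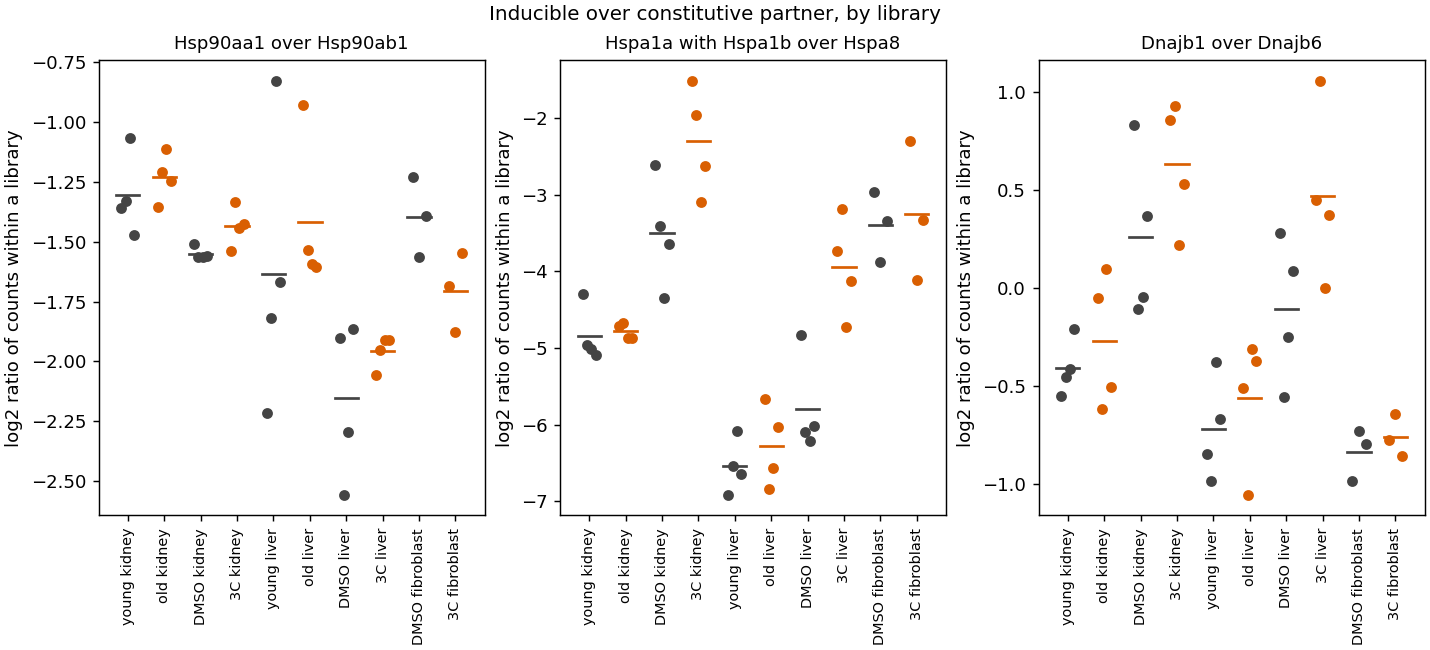
Log2 ratio of the counts of an inducible member (or pair) over its constitutive relative in each of the 38 libraries, with the group mean as a line, in grey for young or DMSO and in orange for old or 3C. In the middle panel the 3C liver libraries lie above all DMSO liver libraries, and no such separation is seen with age.

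Open chromatin at the starts of the members was read from the ATAC-seq peak lists of young and old kidney and liver, 3 libraries per group and 12 in all. A peak lay within 1000 bases of a start for 64 to 68 of the 72 members per library (88.9 to 94.4%), against 60.2 to 66.4% of 24534 genes. Dnajb7, Dnajb8, Dnajc5g and Hspb3 had no peak in any library, and 3 of these had no RNA count either. Dnajc5b had peaks although its RNA was at 0 to 0.136 CPM. Hspb2, a muscle small heat shock protein, had a peak in 6 of 6 kidney and 1 of 6 liver libraries. The peak at Hspa5 had a fold enrichment over background of 6.33, 5.24 and 5.46 in young and 9.45, 9.27 and 9.81 in old kidney. In liver it was 2.61, 3.40 and 3.32 in young and 4.73, 3.61 and 3.48 in old libraries. The kidney pattern was not particular to Hspa5. Several other members had every old kidney value above every young one, among them Dnajb11 (5.97 to 8.07 in young, 10.21 to 12.93 in old) and Dnajb5. At others, such as Dnajc12, the ages overlapped. At Hspb8 the fold enrichment was 6.10, 7.39 and 6.15 in young and 2.92, 3.37 and 6.12 in old kidney, while the RNA was higher in old kidney. Peaks were called in each library separately, fold enrichment moves with the depth of the library, and these values were not tested.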

How the data were processed

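RNA-seq of 38 libraries and ATAC-seq of 12 were used, grouped by their labels. Upstream, adapters were removed by the authors in Trimmomatic 0.39, HISAT2 2.2.1 placed the reads on mm10, and HTSeq 0.12.4 tallied them per gene, ignoring strand. The deposited values are counts per gene. Tallies of reads outside genes (5.99 to 19.54% in no feature) were left out. ATAC-seq reads were placed by the authors with Bowtie2 2.3.5.1, MACS2 called peaks for every library separately, and the deposited lists give a ratio (fold enrichment over background) and −log10 p and q. Only the fold enrichment was used, and GRCm38 annotation (GENCODE) gave the starts and exons.

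Each comparison was fitted over all genes with edgeR 4.0.16 in R 4.3.3 (quasi-likelihood F test, TMM, filterByExpr with a minimum count of 10), with Benjamini-Hochberg adjustment over all genes tested, and a member was called at an adjusted p under 0.05. DESeq2 1.42.0 was an alternative, as were RLE size factors, 2 other filters, a fold above 2, a replicate block, leaving out each library and, chosen after seeing the data, library totals without TMM and, for effects in liver minus kidney, a block of same-numbered kidney and liver within each condition. Ratios used counts with 0.5 added (alternative: 1 added) and exact permutation tests in scipy 1.17.1. Levels are TMM-scaled CPM over all libraries. On simulated data, 162 to 200 of 200 genes changed 4-fold were recovered over the 9 fits, with 5 to 14 false calls. Recovery of changes smaller than 4-fold, such as most of those with age or 3C, was not tested.

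Members and lists were chosen with earlier results of these data known. The text names the inducible and constitutive lists, other members called (up to 12 in each direction by p, and beyond that all those called in both tissue comparisons), untested members, called genes of the heat shock factor, co-chaperone, HSF1 target, ER folding, mitochondrial partner and TRiC lists in the age and 3C comparisons, and a few members singled out after their values were seen (Dnajc12 in liver, Dnaja4, Dnajc17, Hspb2, Dnajb11, Hspa13, Bag3, Cacybp, and those of the ATAC-seq paragraph). Same-numbered libraries were checked for pairing by the correlation of their deviations from the group means. Only young kidney and young liver had every pair over 0.1 (0.104 to 0.452), and with the block 39 members were called there.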

Additional observations from a re-analysis of the deposited data

Results flagged for a closer look

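Among groups of 4 libraries, single libraries were looked for whose gap to the nearest other took up most of the group's range (Dixon's test at 95%). Of 176 checks on members and ratios 6 were picked out, where chance alone gives about 5 in 100 groups, or 8.8. Hspb8 was at 450.1 CPM in DMSO liver replicate 3, against 319 to 329.9 CPM in the others. Hspb7 was at 5.94 CPM in old kidney replicate 1, against 4.21 to 4.44 CPM. The log2 ratio of Hsp90aa1 over Hsp90ab1 was −0.93 in old liver replicate 1 (−1.61 to −1.53 in the others) and −1.51 in DMSO kidney replicate 1 (−1.57 to −1.56). The log2 ratio of Hspa1a with Hspa1b over Hspa8 was −4.29 in young kidney replicate 1 (−5.09 to −4.96) and −4.83 in DMSO liver replicate 1 (−6.22 to −6.02).

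The age effect of Dnajc12 differed between tissues by a test of the difference itself, by 3.95 (log2, liver minus kidney, adjusted p 0.0477 in edgeR's quasi-likelihood test). This call was lost in 17 of 23 alternatives (adjusted p 0.00575 to 0.1499), both replicate blocks and RLE size factors among them, and it rests on old liver replicates 1 and 3, at 317 and 149 CPM, while replicates 2 and 4, at 17.9 and 13.8 CPM, lay within the young range.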

How the results depend on the processing

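The near-identical Hspa1a and Hspa1b cannot be fully separated, and an effect of depth on the calls was not tested. Against 9 members called in old kidney, a fold above 2 left 1, DESeq2 gave 15, the replicate block 4 and leaving out 1 library 3 to 13. In old liver the count of 0 became 1 with DESeq2 and without the filter, and 0 to 1 without 1 library. In fibroblasts the count of 1 became 0 above 2-fold, on library totals, with the block and without any 1 library (0 to 0), and 3 with DESeq2 and without the filter. Kidney against liver gave 21 (young) and 23 (DMSO) members above 2-fold, 54 on library totals in young mice, and 30 to 35 and 38 to 44 without 1 library. The age effect in liver minus kidney went from 1 member to 0 with RLE size factors, with the block and with the block within each condition, and 0 to 1 without 1 library. The counts of 0 for 3C in kidney and liver were 0 in every alternative run.

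The log2 ratio of Hspa1a with Hspa1b over Hspa8 changed sign with age in kidney without young replicate 3 (−0.0002) or 4 (−0.0249), in a range of −0.0249 to 0.2409, and in 3C fibroblasts without DMSO replicate 2 (−0.0873) or 3C replicate 1 (−0.3214), in a range of −0.3214 to 0.5887. Hspa8 in 3C liver changed sign on library totals (−0.004) and without DMSO replicate 2 (−0.111) or 3 (−0.013), in a range of −0.111 to 0.196. The cause of these changes was not tested. By the criterion used (every pair over 0.1), only young kidney and young liver were paired by number. In 3C kidney and liver 3 of 4 pairs were over 0.1 (0.094 to 0.218) and all 4 libraries correlated best with their own number, a hint from the data that kidney and liver of 1 number belong together there. Elsewhere same-number correlations ran from −0.31 to 0.334 and not every library correlated best with its own number. The block changed the call of no member in the 3C comparisons of kidney and liver.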
